A study of Sus scrofa with 2 samples.

Results

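The data describe 4 genes, NPPC, NPR2, KITLG and SLC38A3, in granulosa cells of 2 pig antral follicles measured by droplet single-cell RNA sequencing. The genes were taken by their symbols from a deposited list of 22342 genes, and all 4 were found in both libraries. Both follicles came from the same animal, a pubertal Landrace × Yorkshire gilt aged 210 days that had received pregnant mare serum gonadotropin (PMSG), a hormone that drives follicle growth. Each follicle was judged healthy, was over 7 mm across and gave 1 library (follicle 1 and follicle 2), so that pig, treatment and tissue were shared and no untreated follicle was compared. Follicles were punctured and flushed, cumulus-oocyte complexes were stripped in hyaluronidase, and the granulosa cells of the fluid were sequenced, so no cell carries a label of where it sat. Barcodes with 2000 to 5000 genes and less than 7% mitochondrial UMIs (unique molecular identifiers, each standing for 1 captured RNA molecule) were kept, which left 9362 of 14289 barcodes in follicle 1 and 7843 of 15548 in follicle 2.

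These genes belong to the exchange between granulosa cells and the oocyte. Mural granulosa cells, which line the follicle wall, make C-type natriuretic peptide (CNP, encoded by NPPC). CNP binds NPR2, a receptor of the cumulus and mural cells whose inner part is a guanylyl cyclase, and the cyclic GMP made there passes through gap junctions into the oocyte and holds it in meiotic arrest until the surge of luteinizing hormone. KITLG encodes KIT ligand, which granulosa cells present to the KIT receptor of the oocyte and of theca cells during follicle growth. SLC38A3 encodes a sodium-coupled carrier of glutamine, histidine and alanine that cumulus cells of the mouse express at a high level under the influence of the oocyte.

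The coding sequence of the mature ligand is shown because it is the signal whose source and receptor are compared here. In the RefSeq annotation of Sscrofa11.1, NPPC (ENSSSCG00000026852) lies on chromosome 15 between 132504669 and 132509688 on the minus strand. The last 22 codons and the stop codon of its 126-residue precursor lie in exon 2 of 2, at chr15:132508706-132508774, and are written 5′ to 3′ on the coding strand. The capitals mark the codons of 2 cysteines, at residues 6 and 22 of the peptide, which close a ring of 17 residues that natriuretic peptides need to bind their receptors.
NPPC: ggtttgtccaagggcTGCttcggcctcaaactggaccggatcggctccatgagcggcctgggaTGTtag

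KITLG (ENSSSCG00000035495) lies on the plus strand of chromosome 5 between 94016992 and 94110219. Its exon 6, at chr5:94085869-94085952, holds 84 bases that encode 28 residues and is present in 2 of 3 RefSeq transcripts. The exon is shown because it carries the site at which proteases release soluble KIT ligand, and the form without it stays mainly on the membrane.
KITLG exon 6: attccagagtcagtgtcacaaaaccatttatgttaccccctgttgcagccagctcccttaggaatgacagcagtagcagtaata
Libraries that count the 3′ ends of RNA, as these do, cannot tell the forms with and without this exon apart, so the values of KITLG are the sum of both. NPR2 (ENSSSCG00000005322) lies on the plus strand of chromosome 1 between 236508994 and 236529172, and its last part overlaps SPAG8 on the opposite strand by 2514 bases. SLC38A3 (ENSSSCG00000011397) lies on the plus strand of chromosome 13 between 32683131 and 32699803. The RefSeq 3′ ends of a gene were 4037 bases apart for NPPC and 12067 for KITLG, against 2 bases for NPR2 and a common end for SLC38A3. For NPPC, 1 of these ends, at 132508706, is the last base of the stop codon. That record holds no bases after the coding sequence, so the distance need not lie between ends that the RNA uses. Whether the annotation used for counting covers each end is not given in the sources used here, so levels are compared between cells and follicles and not between genes.

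The kept cells held 111226504 UMIs in follicle 1 and 108920601 in follicle 2, with medians of 11254.5 and 13902 UMIs per cell. Clustering on genes other than the lists studied gave 6 clusters. Cluster 0 (3477 and 3925 cells in follicles 1 and 2) was mural-like, led by TGFB3, ENPP2 and IL33, with AREG at 4123 and 6610 CPM (UMIs of the gene per 1000000 UMIs of the group). Of 6 mural markers, 3 (AREG, CYB5A and TGFB3) were highest in cluster 0 with the follicles pooled. The others went elsewhere: EREG was highest in cluster 2 (66.9 against 20.4 CPM in cluster 0), CYP11A1 in cluster 5 and LHCGR in cluster 3. Cluster 2 (1624 and 139 cells) was cumulus-like, led by ARPP21, ALPK2 and, among the fixed markers, HAS2, the hyaluronan synthase of cumulus expansion. Of 6 cumulus markers, 4 were highest in cluster 2, but PTX3 was lowest there, at 1.33 CPM against 3.35 CPM in cluster 0 and 11.6 CPM in cluster 5. Its VCAN was 6982 CPM in follicle 1 and 1710 in follicle 2, and its TNFAIP6 3637 and 340, while AMH was at 0 in both, so the cumulus-like cells of follicle 2 were few and carried less of these markers. Cluster 4 (456 and 121 cells) held the cycling cells, led by TOP2A, CENPF and UBE2C. Cluster 1 (3621 and 2801 cells; INSIG1, HMGCS1, SCD) and cluster 5 (184 and 177 cells; SLC24A1, ALDH1A2, C12orf75) are left without a cell type. Cluster 3 (680 cells, all of follicle 2, led by CEMIP, CCDC80 and FBXO32) is also left unnamed. Its INHA, the inhibin alpha subunit of granulosa cells, was 2284 CPM against 17320 to 24878 in the other clusters of that follicle. With the follicles pooled, 3 of 6 granulosa markers, FSHR, FST and NR5A1, were highest in cluster 3. FST was 388 CPM there against at most 214 elsewhere, and NR5A1 23.2 against at most 13.2. INHA and CYP19A1 were highest in cluster 0 and INHBA in cluster 2, with CYP19A1 at 35.4 CPM in cluster 3 against 42.3 in cluster 0. The libraries shared 56 barcodes, 18 of them among kept cells, and of the oocyte markers BMP15, ZP2, ZP3 and FIGLA had no UMI in any cluster.

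NPPC was detected in 0.630% of the cells of follicle 1 and 0.842% of those of follicle 2. It had 72 UMIs in 59 of the 9362 cells of follicle 1 (0.647 CPM, 95% Poisson interval 0.507 to 0.815) and 97 UMIs in 66 of the 7843 cells of follicle 2 (0.891 CPM, 0.722 to 1.09). With 1 library per follicle no test is possible, and all intervals cover counting error only. The mural-like cluster 0 held 35 UMIs in each follicle, at 0.859 CPM (0.599 to 1.195) in follicle 1 and 0.631 (0.439 to 0.877) in follicle 2. Cluster 1 was close to it, with 25 UMIs (0.576 CPM) in follicle 1 and 34 UMIs (0.811 CPM) in follicle 2. The cumulus-like cluster 2 held 0 NPPC UMIs among the 17611893 UMIs of follicle 1. Taking 3 UMIs as the limit for a count of 0, that allows up to 0.170 CPM, and the exact upper 95% Poisson limit was 0.209 CPM. In follicle 2 the cluster held 1 NPPC UMI in 139 cells (0.528 CPM, 0.0134 to 2.94). Against the other clusters together, cluster 0 was at 1.64 times (1.002 to 2.67) in follicle 1 but at 0.543 times (0.348 to 0.835) in follicle 2. The ligand was thus seen in the mural-like cells of both follicles, above the other clusters in follicle 1 and below them in follicle 2. In follicle 1 it was not seen in cluster 2.

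In the small clusters NPPC rested on few UMIs. The cycling cluster 4 had 9 UMIs (1.22 CPM, 0.559 to 2.32) in follicle 1 and 5 UMIs (2.24 CPM, 0.729 to 5.24) in follicle 2. In follicle 1 these cycling cells also carried cumulus markers, summed to 5175 CPM against 600 CPM in the mural-like and 11000 CPM in the cumulus-like cluster, beside 3412 CPM of mural markers. Cluster 5 had 3 UMIs in follicle 1 (1.41 CPM, 0.291 to 4.12) and 20 UMIs in follicle 2 (7.94 CPM, 4.85 to 12.3). In follicle 2 that was 10.98 times the level of the other clusters together (interval 6.36 to 18.1), and in follicle 1 it was 2.23 times (0.448 to 6.79). A single cell carried 9 of the 20 UMIs, and without it the level was 4.40 CPM (2.20 to 7.88) over 11 UMIs. In follicle 1 a cell held 2 of the 3 UMIs, and without it the level was 0.473 CPM (0.0120 to 2.63), below that of clusters 0, 1 and 4. Cluster 3 had 2 UMIs (0.414 CPM, 0.0501 to 1.49).

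NPR2, the receptor, had UMIs in every cluster that had cells. Within each follicle the intervals of its level overlapped among all clusters but cluster 3 of follicle 2. It had 572 UMIs in 539 cells of follicle 1 (5.14 CPM, 4.73 to 5.58) and 498 UMIs in 464 cells of follicle 2 (4.57 CPM, 4.18 to 4.99). In follicle 1 its level lay between 4.70 CPM in cluster 5 and 6.38 CPM in cluster 4, with 4.71 CPM (4.07 to 5.43) in the mural-like and 5.91 CPM (4.83 to 7.15) in the cumulus-like cluster. The intervals of all 5 clusters of follicle 1 overlapped, so no order among them can be read. In follicle 2 it was 3.75 CPM (3.26 to 4.29) in the mural-like cluster, 3.65 (3.09 to 4.27) in cluster 1, 4.75 (2.17 to 9.02) in the cumulus-like cluster, 5.83 (3.11 to 9.98) in cluster 4 and 2.38 (0.875 to 5.19) in cluster 5. These intervals overlapped too.

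Cluster 3 of follicle 2 stood apart for NPR2. Its 680 cells held 109 of the 498 NPR2 UMIs of that follicle, at 22.5 CPM (18.5 to 27.2), which was 6.03 times the 3.74 CPM of the other clusters together (interval 4.83 to 7.48). Of all 9847 genes with at least 200 UMIs in that follicle, 21.2% were at least 2-fold higher in cluster 3 than in the other clusters, and 8.97% at least 2-fold lower, so higher levels were common there. The share of cells with NPR2 was 14.4% in cluster 3 against 5.07% in the mural-like cluster, although cells of cluster 3 had a median of 6436.5 UMIs, and after thinning of each cell to 5000 UMIs it was 10.2% against 1.91%. NPR3, which clears natriuretic peptides without making cyclic GMP, was also at its highest there, at 68.0 CPM (60.9 to 75.8) against 18.8 CPM (17.7 to 19.97) in the mural-like cells of that follicle.

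Markers of other cell types moved with cluster 3. The summed level of 8 immune markers was 72.8 CPM there, with only CD3E at 0, against 5.81 to 12.3 CPM in the other clusters of follicle 2. ACTA2 of contractile cells was 60.8 CPM against at most 1.35 CPM, MYH11 102 CPM and DCN 18.2 CPM. The endothelial markers were mixed. VWF was 22.3 CPM and, like TEK at 1.03 CPM, highest in cluster 3. KDR was lowest there, at 0.620 CPM against 1.35 to 5.15 CPM in the other clusters of follicle 2. PECAM1 was highest in cluster 5, and CDH5 was at 0 in every cluster. Of 7 theca or stroma markers 5 were highest in cluster 3, and none was at 0. The sum of that list was 140 CPM there against 173 to 621 CPM in the other clusters of follicle 2. In those other clusters most of the sum was INSL3, at 167 to 618 CPM against 48.6 CPM in cluster 3. FSHR, the receptor of follicle-stimulating hormone and a marker of granulosa cells, was 37.8 CPM against 0.342 to 3.70 CPM. NPR2 was 22.8 CPM without the 9 immune-like cells of the cluster. It was 21.7 CPM (16.6 to 27.8) in the 420 cells without a UMI of a stromal marker or MYH11 and 23.7 CPM (17.5 to 31.6) in the 260 cells with one. At this depth a stromal cell can lack a UMI of these markers, so the split does not separate cell types. The part of stromal cells in the NPR2 level was not tested.

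**Figure D1:**
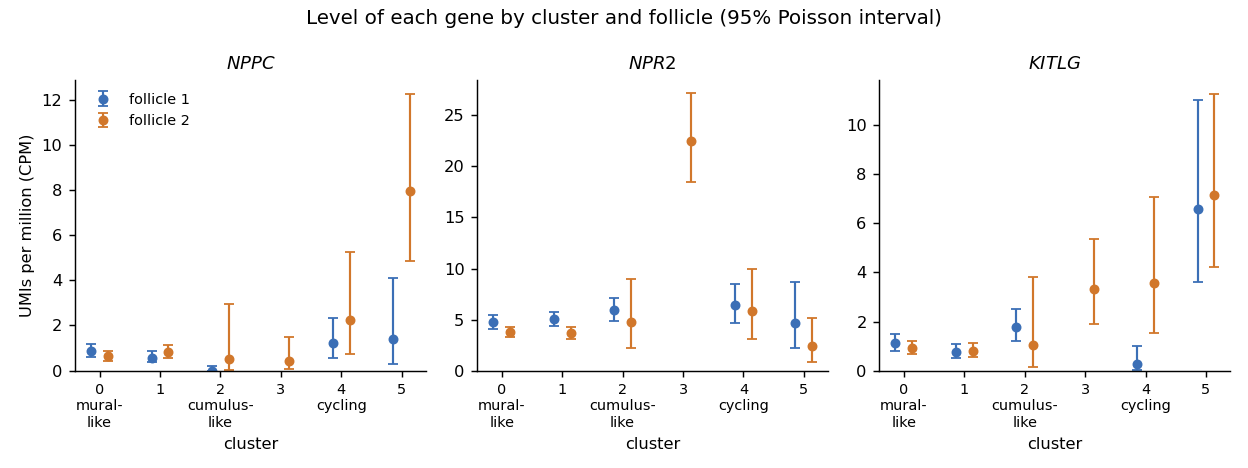
CPM of NPPC, NPR2 and KITLG (vertical axes, each with its own range) in the 6 clusters (horizontal axes) of follicle 1 (blue) and follicle 2 (orange), with 95% Poisson intervals. NPR2 stands out in cluster 3 at 22.5 CPM, NPPC in cluster 5 of follicle 2 at 7.94 CPM, and KITLG in cluster 5 of both follicles at 6.57 and 7.15 CPM.

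The mural to cumulus split was then read as the ratio of cluster 2 to cluster 0 within each follicle. For NPPC in follicle 1 the cumulus-like cells had a count of 0, and 3 UMIs, taken as its limit, would be a level 5.05-fold lower. The exact 95% interval of the ratio, which also carries the error of the mural-like count, reached up to 0.257. In follicle 2 the ratio was 0.837 with an interval from 0.0206 to 4.98, which rests on 1 UMI and gives no direction. In follicle 2 cluster 2 also carried mural markers, summed to 5391 CPM against 2097 CPM of the cumulus markers. Its red blood cell markers were at 407 CPM against 9.53 to 42.8 CPM in the other clusters. The part of these markers in its ratios, for the members and for the other genes below, was not tested. Of its 139 cells in follicle 2, 16 (11.5%) were scored as doublets. The lower NPPC of cumulus-like cells was therefore measurable in 1 of 2 follicles, and with another random seed the clustering had no separate cumulus-like cluster and gave no value. For NPR2 the ratio was 1.25 (0.977 to 1.60) in follicle 1 and 1.27 (0.572 to 2.45) in follicle 2, so the intervals of ligand and receptor did not overlap in follicle 1, and a receptor level 2-fold higher in cumulus-like cells lay outside the interval there. KITLG gave 1.59 (0.975 to 2.57) and 1.15 (0.136 to 4.37), both including 1. Of the 9003 genes with at least 200 UMIs over these clusters in follicle 1, 5.16% were at least 2-fold higher and 7.86% at least 2-fold lower in cumulus-like cells, and in follicle 2, with 8883 genes, 3.03% and 2.90%. NPR2 was the only member with enough UMIs to be among these genes, and it was in neither class.

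**Figure D2:**
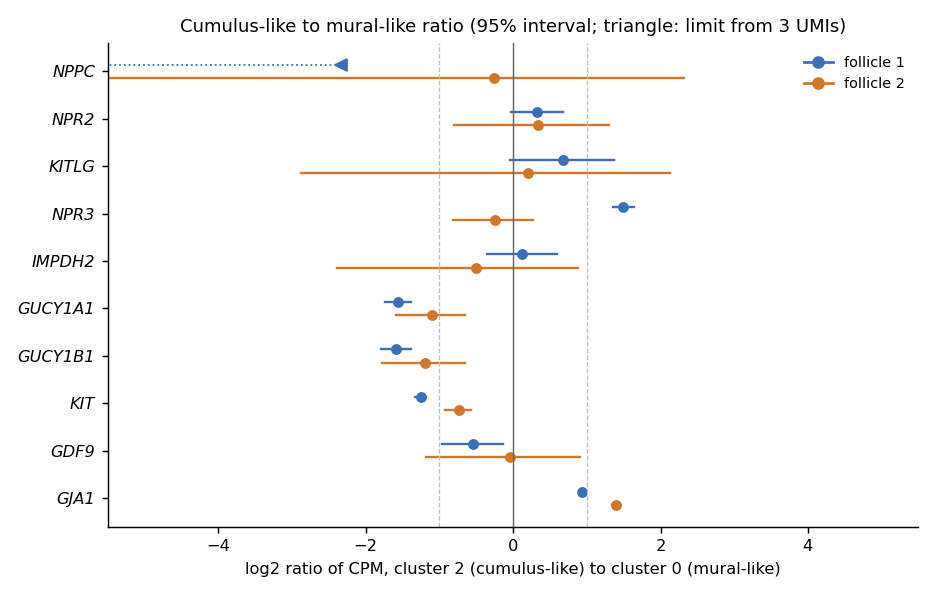
Log2 ratio of CPM in cluster 2 (cumulus-like) to cluster 0 (mural-like) on the horizontal axis, with 95% intervals, for members of the pathway in follicle 1 (blue) and follicle 2 (orange); the dashed lines mark 2-fold, the triangle the limit for NPPC in follicle 1, and intervals beyond the axis are cut at its edge. The limit for NPPC of follicle 1 lies at -2.34, and its exact 95% interval, not drawn, reaches up to -1.96. NPR2 lies at 0.32 and 0.34, and the soluble cyclase subunits GUCY1A1 and GUCY1B1 lie below -1 in both follicles.

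As clusters impose a boundary, the cells of clusters 0, 1 and 2 were also ranked in each follicle by the log2 ratio of their summed cumulus to mural markers (6 genes each, with a pseudocount of 1 CPM) and split into 4 equal parts. The sums included EREG and PTX3, the markers that went the other way between clusters 0 and 2. In follicle 1 NPPC was 0.614, 0.734, 0.810 and 0.167 CPM from the most mural to the most cumulus part, on 16, 19, 21 and 4 UMIs. The last part, in which 68.8% of the cells were of cluster 2, was at 0.272 times the first (interval 0.0663 to 0.845), and the other parts did not differ beyond their intervals. In follicle 2 the levels were 0.710, 0.631, 0.9502 and 0.525 CPM, with a ratio of the last to the first part of 0.740 (0.330 to 1.62), and 6.76% of the last part was of cluster 2. For NPR2 the last part was at 1.27 times the first in follicle 1 (0.982 to 1.63) and at 0.776 times in follicle 2 (0.567 to 1.06), so its direction differed between the follicles and neither interval left out 1. The KITLG ratios, 1.499 (0.859 to 2.65) and 0.967 (0.475 to 1.97), also included 1.

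**Figure D3:**
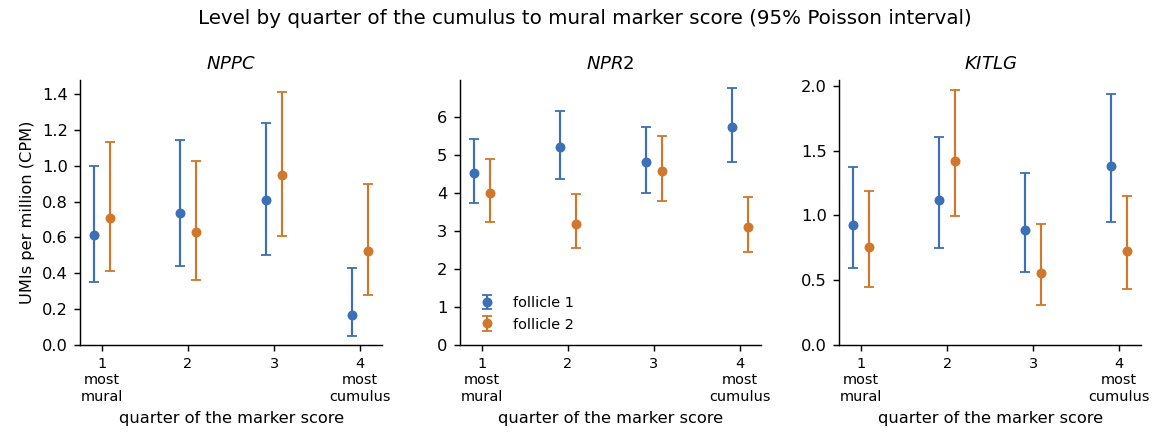
CPM of NPPC, NPR2 and KITLG (vertical axes) in 4 equal parts of the cells of clusters 0, 1 and 2, ordered by the cumulus to mural marker score (horizontal axes), in follicle 1 (blue) and follicle 2 (orange), with 95% Poisson intervals. The most cumulus part of follicle 1 is low for NPPC, at 0.167 CPM, and no such drop is seen for NPR2, at 5.73 CPM.

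KITLG was rare, and its level over all cells was alike in the follicles. It had 125 UMIs in 95 cells of follicle 1 (1.12 CPM, 0.936 to 1.34) and 128 UMIs in 105 cells of follicle 2 (1.18 CPM, 0.980 to 1.40). The mural-like cluster was at 1.11 CPM (0.806 to 1.48) and 0.919 CPM (0.684 to 1.21), and cluster 1 at 0.760 and 0.787 CPM, so these large clusters differed by less than their intervals. The cumulus-like cluster was at 1.76 CPM (1.196 to 2.498) in follicle 1 and 1.06 CPM (0.128 to 3.81) in follicle 2, on 31 and 2 UMIs. Against the other clusters together, that was 1.75 times (1.13 to 2.66) in follicle 1 and 0.897 times (0.107 to 3.31) in follicle 2. By the same measure cluster 1 was lower in both follicles, at 0.561 times (0.365 to 0.843) and 0.555 times (0.362 to 0.832).

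Cluster 5 had the highest level of KITLG of all clusters in both follicles. It held 14 UMIs in 9 of 184 cells of follicle 1 (6.57 CPM, 3.59 to 11.03) and 18 UMIs in 13 of 177 cells of follicle 2 (7.15 CPM, 4.24 to 11.3). Against the other clusters of the same follicle these were 6.46 times (3.42 to 11.3) and 6.92 times (3.95 to 11.5) higher. KITLG has too few UMIs for the 200-UMI limit, and of the genes above it 2.44% in follicle 1 and 1.64% in follicle 2 were at least 2-fold higher in cluster 5. Without the cell of most KITLG UMIs in each follicle the levels were 5.21 CPM (2.60 to 9.32) and 5.19 CPM (2.76 to 8.88), and without cells scored as doublets 7.18 and 7.67 CPM. In cluster 5 the immune markers summed to 24.9 and 12.3 CPM, against 8.35 to 14.2 CPM in the other clusters of follicle 1 and 5.81 to 72.8 CPM in those of follicle 2, and INHA was at 21808 and 24718 CPM.

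KITLG of the cycling cluster 4 rested on 2 UMIs in follicle 1 and 8 in follicle 2. It was at 0.272 CPM (0.0329 to 0.981) and 3.59 CPM (1.55 to 7.07). The ratio of follicle 2 to follicle 1 was 13.2 (2.64 to 128), while the intervals for clusters 0, 1, 2 and 5 included 1. At full depth 2 of 456 and 6 of 121 cells of cluster 4 had KITLG. After thinning it was 2 of 456 and 1 of 119, so no difference in these shares was seen at equal depth. The cumulus markers of cluster 4 summed to 5175 and 663 CPM, and the part of its makeup in the ratio was not tested. For KITLG, cluster 3 was at 3.31 CPM (1.89 to 5.37), 3.07 times the other clusters of follicle 2 (1.70 to 5.22). KIT, the receptor of KIT ligand, was itself abundant in these granulosa cells, with 22308 UMIs in 71.5% of cells of follicle 1 and 23338 UMIs in 79.7% of follicle 2. It was 238 CPM in the mural-like and 99.9 CPM in the cumulus-like cluster of follicle 1, a ratio of 0.419 (0.398 to 0.441), and 234 and 140 CPM in follicle 2, a ratio of 0.598 (0.528 to 0.676), and so lower in the cumulus-like cells of both follicles.

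SLC38A3 was not detectable at this depth beyond 2 molecules. It had 0 UMIs in follicle 1, which allows up to 0.0270 CPM, and 2 UMIs in follicle 2 (0.0184 CPM, 0.00222 to 0.0663), both in cluster 1. The cumulus-like clusters held 0 UMIs in both follicles, which allows 0.170 CPM in follicle 1 and 1.58 CPM in follicle 2, so no split can be read. Of the related carriers, SLC38A2, which also takes up neutral amino acids, was at 119 and 102 CPM in mural-like and 131 and 125 CPM in cumulus-like cells of follicles 1 and 2. Of 12 other amino acid transporters on the list, 6 had at least 200 UMIs in both follicles, and none of these was 2-fold higher or lower in the cumulus-like cells of either follicle.

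Next, the UMIs of each gene were counted per cell. NPPC UMIs were concentrated in few cells, with 33.3% of them in cells holding 2 or more in follicle 1 and 43.3% in follicle 2, and up to 3 and 9 UMIs in a cell. For NPR2 these shares were 11.4% and 12.7%, with at most 3 UMIs in a cell, and for KITLG 41.6% and 29.7%, with at most 4 and 5. The variance over cells was 1.41 and 2.68 times the mean for NPPC, 1.06 and 1.09 times for NPR2, and 1.61 and 1.56 times for KITLG, where counting alone gives a value near 1. NPPC and KITLG thus departed from an even spread over cells more than NPR2 did in both follicles. Cells with NPPC had medians of 11734 and 14778 UMIs, near those of all cells.

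**Figure D4:**
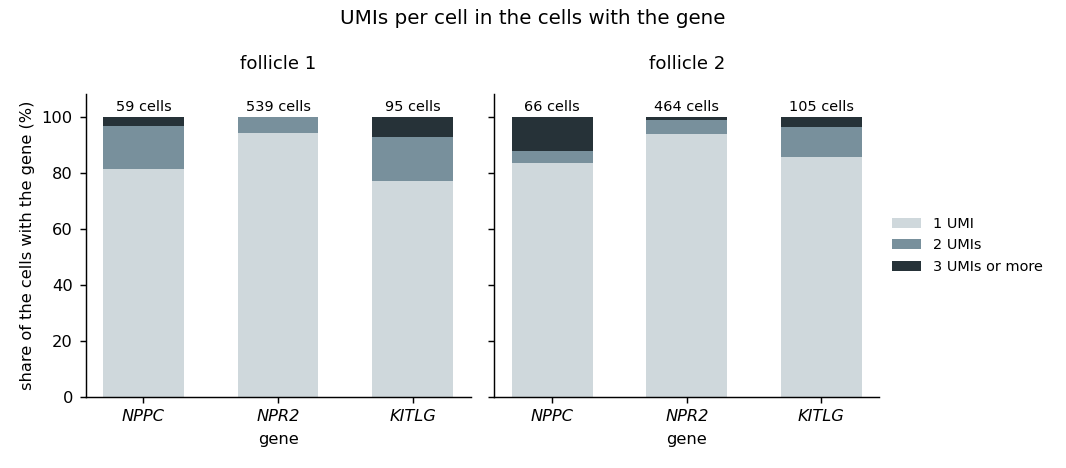
Share of the cells with a gene (vertical axis, percent) that held 1, 2 or at least 3 UMIs of it, for NPPC, NPR2 and KITLG (horizontal axis) in follicle 1 (left) and follicle 2 (right), with the number of such cells above each bar. In follicle 2, 8 of 66 cells with NPPC held at least 3 of its UMIs, against 5 of 464 cells with NPR2.

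Cells that held ligand and receptor RNA together were rare. In follicle 1, 7 of 59 cells with NPPC also had NPR2 (11.9%, Clopper-Pearson interval 4.91 to 22.9), against 5.72% of the cells without NPPC. In follicle 2 it was 2 of 66 cells (3.03%, 0.369 to 10.5) against 5.94%. The shares lay on opposite sides of the background in the follicles, and each interval included it, so no joint or exclusive use of the genes by cells was detectable at this depth. With each cell thinned to 5000 UMIs, 1 of 26 and 0 of 30 cells with NPPC had NPR2.

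KITLG was found in 2 of 59 cells with NPPC in follicle 1 (3.39%, 0.413 to 11.7) and in 0 of 66 in follicle 2 (0 to 5.44%). Both intervals included the shares in cells without NPPC, 1.00% and 1.35%. With NPR2, KITLG was found in 3 of 539 (0.557%) and 5 of 464 (1.08%) cells, against 1.04% and 1.36% of the cells without NPR2. NPR2 and its clearing counterpart NPR3 were found together in 120 of 539 and 124 of 464 cells with NPR2 (22.3% and 26.7%), against 19.9% and 21.6% of the cells without NPR2. In follicle 2 the interval of the first share, 22.7% to 31.0%, lay above that of the second, 20.7% to 22.6%. Within clusters of that follicle the shares were 21.1% against 21.7% in cluster 0, 28.9% against 20.1% in cluster 1 and 33.7% against 27.7% in cluster 3, and the part of the clusters' makeup in the pooled shares was not tested. After thinning the shares were 13.2% (8.81 to 18.7) and 9.601% (8.95 to 10.3), with intervals that overlapped. KIT was present in 72.6% and 73.3% of cells with KITLG, near its share in all other cells, 71.5% and 79.8%. Over the 6 pairs and 2 follicles, Pearson's r of log-normalized values across cells lay between -0.0198 and 0.0486, values that in counts this sparse are no finding.

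**Figure D5:**
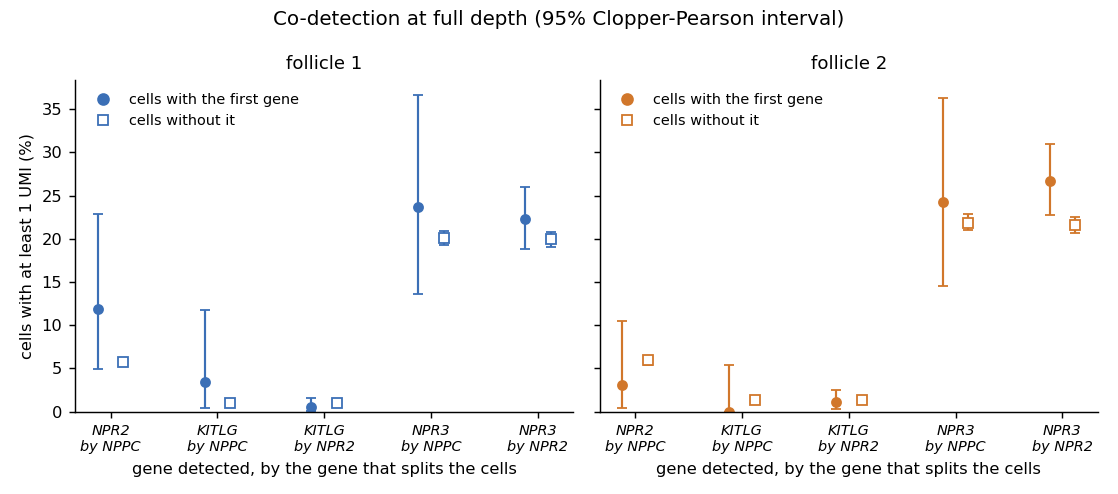
Share of cells with at least 1 UMI of a gene (vertical axis, percent) among cells with (filled circles) and without (open squares) another gene, for 5 pairs (horizontal axis) in follicle 1 (left) and follicle 2 (right) at full depth, with 95% Clopper-Pearson intervals. NPR2 is found in 11.9% of NPPC cells of follicle 1 and 3.03% of those of follicle 2, and the intervals with and without the first gene overlap for all pairs except NPR3 by NPR2 in follicle 2.

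RNA set free from broken cells can give UMIs to cells that do not express a gene, and its level could not be set here. Only 4 immune-like barcodes of follicle 1 and 14 of follicle 2, counted over all deposited barcodes, could serve as cells that should lack these genes. They held 0 UMIs of NPPC, KITLG and SLC38A3 and 1 of NPR2 among 136865 and 103937 UMIs, which allows NPPC up to 27.0 and 35.5 CPM at the upper 95% limit, above all levels measured. The part of free RNA in the shares of cells with 1 UMI was not tested.

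Between the follicles, NPPC, NPR2 and KITLG differed by less than 2-fold over all cells. The ratio of follicle 2 to follicle 1 was 1.38 (1.004 to 1.89) for NPPC, whose interval narrowly left out 1. It was 0.889 (0.787 to 1.004) for NPR2 and 1.05 (0.811 to 1.35) for KITLG. Of 10675 genes with at least 200 UMIs, 0.806% were at least 2-fold higher and 1.94% at least 2-fold lower in follicle 2. For NPR2 the value rested on cluster 3, and without it the ratio was 0.727 (0.637 to 0.828). It was 0.795 (0.650 to 0.972) in cluster 0 and 0.723 (0.584 to 0.893) in cluster 1, so the receptor was slightly lower in follicle 2 in the large clusters present in both. For NPPC cluster 0 gave 0.734 (0.446 to 1.21) and cluster 1 gave 1.41 (0.815 to 2.46), opposite directions within counting error. Cluster 5 gave 5.64 (1.67 to 29.6) on 20 and 3 UMIs, with 9 of the 20 in a single cell. In the cells outside cluster 5 NPPC was at 0.724 CPM in follicle 2 and 0.632 CPM in follicle 1. As each follicle is 1 library, follicle and library cannot be told apart.

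The other genes of the pathway were read from 6 lists with 53 genes, all of which were found. Of these, 31 had at least 200 UMIs over clusters 0 and 2 in both follicles, and 0 were at least 2-fold higher and 2 at least 2-fold lower in the cumulus-like cells of both, where 1.56% and 1.70% of 8779 genes were so. The 2 lower genes were GUCY1A1 and GUCY1B1, the subunits of the soluble guanylyl cyclase that answers nitric oxide, which is another source of cyclic GMP than NPR2. GUCY1A1 was 49.1 CPM in mural-like and 16.6 CPM in cumulus-like cells of follicle 1, a ratio of 0.339 (0.299 to 0.383), and 45.4 and 21.1 CPM in follicle 2, a ratio of 0.465 (0.331 to 0.635). GUCY1B1 followed, at 39.0 and 13.0 CPM with a ratio of 0.334 (0.289 to 0.383), and 33.7 and 14.8 CPM with a ratio of 0.438 (0.290 to 0.635). The median log2 ratio of the 8 genes tested for cyclic GMP supply, breakdown and effectors was -0.58 and -0.05 in the follicles, beside -0.11 and 0.02 over all genes tested.

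Of the natriuretic peptide list, 3 of 7 genes were tested. NPR3 was 17.7 CPM in mural-like and 49.9 CPM in cumulus-like cells of follicle 1, a ratio of 2.82 (2.55 to 3.12), but 18.8 and 15.8 CPM in follicle 2, a ratio of 0.843 (0.566 to 1.21). CORIN, a protease that processes natriuretic peptide precursors and was named after its values were seen, was 4.52 and 47.0 CPM in follicle 1 and 3.91 and 5.81 CPM in follicle 2, on 11 UMIs in the cumulus-like cells of the latter. The cumulus-like cells of follicle 1 thus carried more of both genes than those of follicle 2, as they did of VCAN and TNFAIP6, and the part of cluster makeup in this was not tested. FURIN, which cleaves the CNP precursor, was 194 and 130 CPM in follicle 1 and 190 and 146 CPM in follicle 2, ratios of 0.669 (0.638 to 0.701) and 0.766 (0.677 to 0.863). NPPA and OSTN were at 0 in both clusters of both follicles, and NPPB and NPR1 had at most 9 UMIs in either.

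Gap junctions carry cyclic GMP from cumulus cells to the oocyte, and GJA1, the main connexin of granulosa cells, was higher in cumulus-like cells. It was 659 and 1259 CPM in follicle 1, a ratio of 1.91 (1.88 to 1.95), and 540 and 1426 CPM in follicle 2, a ratio of 2.64 (2.54 to 2.75), with 1026 and 794 CPM in cluster 1 and 1320 CPM in cluster 3. IMPDH2, a rate-limiting enzyme of guanine nucleotide supply, was 2.97 and 3.24 CPM in follicle 1 and 2.99 and 2.11 CPM in follicle 2, with ratios of 1.09 (0.781 to 1.504) and 0.706 (0.190 to 1.84). Of the oocyte factors, GDF9 was 5.30 and 3.63 CPM in follicle 1 and 4.88 and 4.75 CPM in follicle 2, on 64 and 9 UMIs in the cumulus-like cells, and BMP15 had 0 UMIs.

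Finally, the genes most like each member were sought by Pearson's r of log2(CPM + 1) over the 11 combinations of cluster and follicle that had cells, among 8672 or 8673 genes with at least 1000 UMIs. These values share libraries and depth and are given as a description. For NPR2 they were DVL3 (0.985), TRIM28 (0.978) and TMEM132A (0.977), of which DVL3 was 56.4 CPM in cluster 3 against 20.3 to 30.1 CPM in the other clusters. For KITLG they were ENTPD5 (0.910), DERA (0.873) and PURG (0.872), each at its highest in cluster 5, such as ENTPD5 with 26.3 and 25.4 CPM against 10.97 to 16.1 CPM elsewhere. For NPPC they were PRPF8 (0.881), C9orf85 (0.873) and RDH14 (0.873), and PRPF8 varied little, from 81.7 CPM in the cumulus-like cluster of follicle 1 to 132 CPM in cluster 5 of follicle 2.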

How the data were processed

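The authors aligned reads from 10x Genomics 3′ libraries to Sscrofa11.1 with CellRanger 6.0.2, per the file headers and the study's methods, and deposited the whole-number UMI counts of each gene and called barcode, with no normalization. Barcodes were kept as stated in the report. Doublets (6.9% of barcodes by score) were marked and kept, and their removal was an alternative. The score found 56.8% and 62.2% of planted doublets. Seurat 5.3.0 (R 4.3.3) normalized to 10000 UMIs, integrated the libraries by anchors over 2000 variable genes without the list genes, and clustered on 40 components at resolution 0.26, the lowest step of 0.02 that gave 6 clusters. Other steps used Python 3.11.15, numpy 2.4.6, scipy 1.17.1, pandas 2.3.3 and matplotlib 3.10.9. UMIs were summed by cluster and follicle. Levels have exact Poisson, shares Clopper-Pearson and ratios exact conditional 95% intervals, which cover counting error only. Shares were repeated in 9343 and 7738 cells thinned to 5000 UMIs, leaving out 19 and 105. The ratio was tested on simulated data. Genes named were the members, genes of the lists with at least 200 UMIs and a 2-fold ratio in both follicles, fixed genes of the pathway (GJA1, NPR3, IMPDH2, KIT, GDF9, BMP15), genes most like a member, and cluster leaders. FURIN, SLC38A2 and CORIN were added after their values were seen. Members and lists were chosen with earlier results of these data known. FOXL2, MKI67 and HBA1 of the marker lists were not matched. The oocyte was not analysed here.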

Additional observations from a re-analysis of the deposited data

Results flagged for a closer look

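SMAD3, which carries signals of GDF9 and other ligands of the transforming growth factor family, went opposite ways in the follicles. Its log2 ratio of cumulus-like to mural-like cells was -1.07 in follicle 1 (97 UMIs at 5.51 CPM against 470 at 11.5 CPM) and 0.64 in follicle 2 (31 UMIs at 16.4 CPM against 581 at 10.5 CPM), and the difference was not tested, as each follicle is 1 library. NPPC was seen in barcodes that the limit of 2000 genes removed. In follicle 2, barcodes with under 1000 genes held 33 NPPC UMIs in 26 barcodes, 5.48 CPM (3.77 to 7.70), which was 6.15 times the level in kept cells (4.01 to 9.22), while follicle 1 held 3 UMIs in such barcodes (0.802 CPM). NPR2 was seen in barcodes with 2000 to 5000 genes and 7% or more mitochondrial UMIs, at 8.26 CPM in follicle 1 and 8.77 CPM in follicle 2, against 5.14 and 4.57 CPM in kept cells, with intervals of the ratio that included 1 (0.873 to 2.72 and 0.984 to 3.38).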

How the results depend on the processing

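Of 85 alternative values, 77 lay within the counting interval of the reported value and 8 did not. Some of the 77 were limits from 0 UMIs in the cumulus-like cells, all for NPPC, and a limit inside the interval does not show the same level. On the log2 scale, NPPC of follicle 1 (limit of -2.34) gave -1.39 at resolution 0.8, again a limit with 0 UMIs in fewer cells, and -1.88 between the outer parts of the marker score. For NPPC of follicle 2 (-0.26) no integration and resolution 0.8 left 0 UMIs in the cumulus-like cells, with limits of 4.43 and 3.92. Keeping the list genes also left 0 UMIs there, with a limit of 1.26 that is counted among the 77. NPR2 of follicle 2 (0.34) gave 1.73 at resolution 0.8 on 4 UMIs, and KITLG of follicle 2 (0.20) gave 2.61 without integration on 1 UMI. The ratio of follicle 2 to follicle 1 of NPR2 (-0.17) was 0.039 as a mean over cells and -0.46 without cluster 3. Another random seed gave no separate cumulus-like cluster, so no value, and 64.5% of cells kept their cluster name. Without integration 61.7% did, and under resolution 0.8, 20 components and list genes kept 86.1% to 94.2%. The alternatives that join clusters 0 and 1, use the marker score or leave out cluster 3 were chosen after seeing the data. The alternatives covered NPPC, NPR2 and KITLG, and the ratios of KIT, GUCY1A1, GUCY1B1, GJA1 and other genes were not repeated under them. No paired analysis was possible because each follicle is 1 library. Depth limits NPPC, KITLG and SLC38A3 most, and follicle 2 has only 139 cumulus-like cells.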
